A study of Citrullus lanatus with 36 samples.

Results

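The change of the melon flesh transcriptome over 6 d of storage after harvest was examined in wild-type (WT) fruit, as the difference between 3 libraries of stored flesh and 3 libraries of flesh taken at 36 days after pollination (DAP), the day of harvest. These 6 libraries were chosen by their labels alone, and they are 6 of the 36 libraries of the series. All 24901 genes with a value above 0 in any of the 36 libraries were tested. WT is the oriental melon line BY9H, a climacteric thin-rind type of *Cucumis melo* with orange flesh. WT fruit carries no edited allele, whereas the other genotypes of the series carry in 1 copy (*CmNOR/Cmnor*) or in both copies (*Cmnor*) a deletion in the NAC domain of *CmNOR*, made with CRISPR/Cas9. WT flesh on the vine was collected at 33, 36 and 39 DAP. By the methods of the study, stored melons were picked at 36 DAP and kept together at a mild temperature and high humidity, and the flesh was parted from the rind before freezing. The labels give *Citrullus lanatus*, the watermelon, as the organism, whereas the identifiers of the annotated genes are those of the melon genome and the study describes melon. Fruit left on the vine for the same 6 d is not part of the design, so that storage and the added age of the fruit cannot be told apart.

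Climacteric fruit ripens with a burst of ethylene, which is made from S-adenosylmethionine by way of 1-aminocyclopropane-1-carboxylate (ACC) and acts through receptors that release transcription factors of the EIN3 type. In melon flesh this goes along with the breakdown of pectin and other wall polymers, with carotenoid pigment and with ester aroma. After picking, the fruit no longer receives water and sugar from the plant while respiration and water loss go on.

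The expression values are FPKM, the fragments of a gene scaled to its transcript length and to the mapped fragments of the library. They summed to 599203 to 610872 per library at 36 DAP and to 600533 to 605094 after storage. Depth, estimated from the steps between low values, was 17.7 to 25.0 M (mega, 1e6) fragments per library at 36 DAP and 27.3 to 33.2 M after storage, so that the stored libraries were the deeper ones by this estimate. A value of 1 fragment in a transcript of 1 kb then corresponds to 0.0301 to 0.0564 FPKM. The correlation of log2(FPKM + 1) over 15407 genes was 0.985 to 0.993 between libraries at 36 DAP, 0.986 to 0.993 between libraries after storage and 0.921 to 0.937 between the groups, which describes the libraries across genes and is no test. The labels do not say whether the 3 libraries of a group came from separate fruits. The p-values rest on the spread between libraries within a group, pooled over all 36 libraries in 12 groups, and not on the 6 compared libraries alone. In RNA from whole flesh, fewer cells of a type and less RNA per cell cannot be told apart.

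Genes that mark ripe orange flesh were present in both groups. Phytoene synthase *PSY1* (MELO3C025102.2), the entry enzyme of carotenoid synthesis, stood at 175 to 217 FPKM at 36 DAP and 186 to 205 FPKM after storage. The acyltransferase gene MELO3C024771.2, of benzoate ester formation, was at 11902 to 12399 FPKM and 10504 to 11777 FPKM. Of the 24 seed storage protein and oleosin genes tested, 3 were higher and 2 lower after storage, and the *oleosin 1-like* gene MELO3C011123.2, at 36.1, 50.4 and 38.3 FPKM before and 19.8, 17.2 and 19.1 FPKM after storage, was among those that fell. Genes of the leaf-type photosystem and antenna list were present at high levels in both groups, with the antenna gene MELO3C002727.2 at 4107 to 7526 FPKM at 36 DAP. The part of seed, phloem or green tissue in the results below was not tested.

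**Overall response.** A differentially expressed gene (DEG) was defined by an adjusted p under 0.05 in limma together with a log2 fold change of 1 or more, up or down, on the log2(FPKM + 1) scale. There were 2064 DEGs, of which 994 were higher after storage (3.99% of the genes tested) and 1070 were lower (4.3%). In 980 of the former and 1062 of the latter the 3 and 3 libraries did not overlap. The DEGs were called on these same libraries, so that this is no further support, and the share over all genes was not counted. At the adjusted p alone, 4969 genes were higher (20%) and 4569 lower (18.3%), and these shares are the background for the gene lists below. They include many silent genes. With a filter at 1 FPKM in 3 libraries, 4667 were higher and 4628 lower of 17813 genes. A mean of 1 FPKM was reached by 85 of 106 carbon fixation genes but by 60 of 160 defense genes. A list above or below the background can thus reflect how many of its members are expressed. Large changes were few. A log2 fold change of 3 or more was found for 42 genes that rose, and one of at most -3 for 26 genes that fell. The median over all genes was 0.00, and over the 13799 genes whose mean reached 1 FPKM it was 0.01. FPKM are relative to the total of each library, and with scaling to the median the genes past the adjusted p were 5642 higher and 4223 lower. The number of DEGs depends on the pseudocount and the reference. It was 3985 with a pseudocount of 0.1 and 1145 against the mean of WT flesh at 33 and 39 DAP. Against that mean in place of 36 DAP, 776 of the genes that rose and 970 of those that fell passed the adjusted p in the same direction, and 5 and 8 passed it in the opposite direction. All 3 stored libraries lay above every one of the 9 WT libraries from the vine for 578 of the genes that rose. They lay below all 9 for 777 of those that fell. The stored libraries are those that made the DEG calls, and those of 36 DAP are among the 9. Neither these counts nor those against 33 and 39 DAP are thus independent support. Over all genes tested, 4028 were higher and 4631 lower against the mean of 33 and 39 DAP at the adjusted p.

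**Figure D1:**
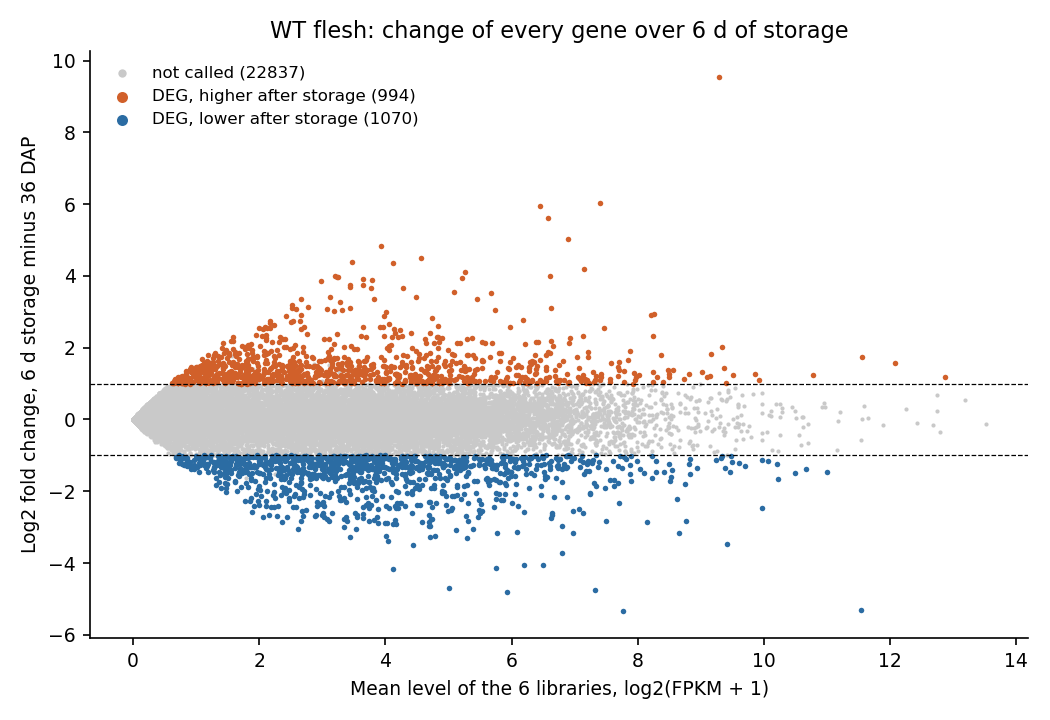
Log2 fold change over 6 d of storage (y axis) against the mean level of the 6 WT libraries as log2(FPKM + 1) (x axis), with 1 point per gene, DEGs in color and dashed lines at a log2 fold change of 1 and -1. The 994 DEGs higher and 1070 DEGs lower spread over all levels, and the highest point is MELO3C016691.2, at a log2 fold change of 9.53.

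**Largest rises.** The genes that rose most were of mixed kinds. They included single genes related to the cuticle, to defense and to oxidation in the wall, a sugar transporter, a phloem protein, a lipoxygenase, a cytochrome P450 and an uncharacterized gene, and several were close to 0 at harvest. The phloem protein genes as a list went the other way, with 6 of 40 higher (15%, below the background) and 16 lower (40%, above it). The largest rise was that of MELO3C016691.2 (chromosome 7, 2832823 to 2834526, minus strand), described as *skin secretory protein xP2-like*, a name taken from a frog protein that says little about a plant gene. It stood at 0.479, 0.649 and 0.737 FPKM at 36 DAP and at 1695, 872 and 1164 FPKM after storage. All 3 stored libraries were far above those of harvest, and also above the 12.4 ± 10 FPKM of 33 DAP and the 0.898 ± 0.0944 FPKM of 39 DAP (SD, n = 3). The log2 fold change was 9.53 (standard error, SE, 0.79, adjusted p = 1.3e-10).

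The family 19 chitinase gene MELO3C007961.2 (chromosome 8, 6483540 to 6484970), of an enzyme that cleaves the chitin of fungal walls, went from 1.78, 1.85 and 2.89 FPKM to 322, 40.7 and 636 FPKM. The stored libraries did not overlap with those of harvest but differed widely among themselves, and the log2 fold change was 6.03 (SE 0.52, adjusted p = 3.4e-10). At 33 DAP the same gene was at 93.6 ± 20.4 FPKM. Its log2 fold change was 7.18 without stored replicate 2 and 5.21 without stored replicate 3. Other defense genes with large rises were those of a thaumatin-like protein, MELO3C009383.2, at 0.0415, 0.281 and 0 FPKM before and 14.2, 12.4 and 24.0 FPKM after storage, and of a dirigent protein, MELO3C014665.2, at 0, 0.154 and 0.655 FPKM before and 39.6, 6.65 and 52.0 FPKM after storage. In the dirigent and chitinase genes the same library, stored replicate 2, was the lowest of the 3, and without it the log2 fold change of the dirigent gene went from 4.36 to 5.22. As a list, 21 of the 160 pathogenesis-related and defense genes tested were higher and 27 lower, the former share (13.1%) below the background and the latter near it, so that the large rises were those of a few members.

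Single genes related to the cuticle and its waxes were among the strongest risers in flesh parted from the rind. MELO3C003230.2 (chromosome 8, 33450838 to 33452415), related to *DCR*, which is needed for cutin in *Arabidopsis*, stood at 2.0, 1.14 and 2.38 FPKM at 36 DAP and at 174, 176 and 165 FPKM after storage. The stored libraries were tight and 93.3 ± 32.3 times as high (log2 fold change 5.95, SE 0.14, adjusted p = 3.1e-21), and they were close to the 184 ± 8.32 FPKM of 33 DAP, a level that had gone by 39 DAP, at 1.38 ± 0.262 FPKM. *ECERIFERUM 1* (MELO3C006254.2, chromosome 6, 2060146 to 2067875), which in *Arabidopsis* works with *ECERIFERUM 3* to make wax alkanes, rose from 1.52, 1.84 and 6.07 FPKM to 247, 141 and 171 FPKM (log2 fold change 5.62, SE 0.27, adjusted p = 3.0e-15). It is among the genes that the study picked on these libraries. Its partner *ECERIFERUM 3* (MELO3C010174.2) rose from 0.256, 0.0577 and 0.205 FPKM to 5.86, 6.62 and 8.15 FPKM (adjusted p = 8.1e-14).

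*BODYGUARD 1* (MELO3C005787.2), whose *Arabidopsis* relative is needed for a tight cuticle, went from 91.5, 114 and 91.2 FPKM to 539, 511 and 455 FPKM. This was a 5.07 ± 0.807-fold rise (adjusted p = 9.3e-08), back to the 501 FPKM mean of 33 DAP. Neither *BODYGUARD 1* nor the *DCR-like* gene is a member of the list of cutin, suberin and wax genes by its description. In that list as a whole, 16 of 115 were higher and 15 lower, below the background in both directions. The largest falls in that list were those of a GDSL lipase gene, MELO3C022693.2, from 9.16, 7.70 and 9.75 FPKM to 2.95, 2.49 and 3.33 FPKM, and of *3-ketoacyl-CoA synthase 4-like* (MELO3C010941.2), from 4.36, 3.88 and 4.85 FPKM to 1.67, 0.512 and 1.5 FPKM.

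*Peroxidase 43* (MELO3C018672.2, chromosome 1, 1986266 to 1992355), a secreted class III peroxidase, went from 6.19, 8.53 and 4.20 FPKM to 247, 213 and 227 FPKM. The groups lay 36.3 ± 12.7-fold apart (log2 fold change 5.02, SE 0.23, adjusted p = 1.4e-15), and the vine levels of 33 and 39 DAP, 24.2 ± 5.19 and 22.3 ± 1.44 FPKM, were in between. The *FOX5-like* oxidoreductase gene MELO3C002839.2 rose from 17.3, 10.4 and 13.8 FPKM to 240.2, 254 and 313 FPKM (adjusted p = 2.6e-12). *CYP734A1-like* (MELO3C026634.2), a cytochrome P450 whose *Arabidopsis* relative inactivates brassinosteroid hormones, rose from 11.3, 9.72 and 10.7 FPKM to 178, 186 and 184 FPKM, a 17.3 ± 1.38-fold change with almost no spread within either group (adjusted p = 1.1e-16).

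A few genes were almost silent at harvest. The 9-lipoxygenase gene MELO3C004252.2 was listed at 0, 0 and 0.0269 FPKM at 36 DAP and stood at 18.9, 19.1 and 22.2 FPKM after storage. The uncharacterized gene MELO3C004362.2 was listed at 0, 0 and 0.0758 FPKM and stood at 29.5, 29.6 and 26.1 FPKM. *CYP21-1* (MELO3C027476.2), of a peptidyl-prolyl isomerase, was listed at 0 in all 9 WT libraries from the vine and stood at 18.3, 11.0 and 12 FPKM in the stored ones. Each passed the test (adjusted p = 1.2e-19, 3.8e-21 and 9.7e-18), and no fold is given because of the zeros.

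**Largest falls.** Among the genes that fell most were those of small heat shock proteins, a mannanase, a patellin, a glycosyltransferase, *OXIDATIVE STRESS 3 LIKE 1*, and single enzymes of carotenoid and sugar-phosphate metabolism. *Mannan endo-1,4-beta-mannosidase 1-like* (MELO3C022162.2, chromosome 9, 617631 to 621776, minus strand), of an enzyme that cuts mannan chains of the wall, fell from 301, 329 and 288 FPKM to 5.89, 14.6 and 12.6 FPKM. The groups were 27.7 ± 11.6-fold apart (log2 fold change -4.75, SE 0.26, adjusted p = 4.1e-14), and the stored libraries were also below the 87.7 ± 18 FPKM of 33 DAP and the 125 ± 4.83 FPKM of 39 DAP. *Patellin-1-like* (MELO3C019363.2), of a lipid-binding membrane-traffic protein, fell from 62.3, 42.7 and 77.4 FPKM to 1.40, 0.965 and 1.66 FPKM (adjusted p = 2.7e-18).

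Outside the 15 largest falls, the abundant aquaporin gene *PIP2-4* (MELO3C025772.2, chromosome 11, 28209027 to 28210647), of a plasma membrane water channel, fell from 708, 659 and 799 FPKM to 77.5, 72.9 and 86.8 FPKM. This was a 9.14 ± 1.22-fold fall (log2 fold change -3.17, SE 0.15, adjusted p = 3.0e-15) from one of the high levels of the flesh. On the vine *PIP2-4* stood at 191, 188 and 156 FPKM at 39 DAP. A pair of shikimate O-hydroxycinnamoyltransferase genes, of the lignin precursor pathway, fell side by side. MELO3C027219.2 went from 203, 214 and 260.4 FPKM to 28.0, 19.7 and 25.5 FPKM, and MELO3C023474.2 from 103, 118 and 143 FPKM to 12.6, 12.8 and 13.3 FPKM (adjusted p = 1.6e-16 and 8.2e-15). They share a description, and how reads were split between similar copies is not stated, so that the pair may not be independent. The glycosyltransferase gene *UGT73C2-like* (MELO3C009391.2) fell from 51.6, 37.5 and 49.8 FPKM to 2.70, 3.36 and 5.94 FPKM (adjusted p = 3.0e-12). *OXIDATIVE STRESS 3 LIKE 1* (MELO3C011491.2) fell from 74.1, 73.4 and 63.4 FPKM to 4.37, 7.53 and 7.01 FPKM (adjusted p = 1.4e-12).

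**Figure D2:**
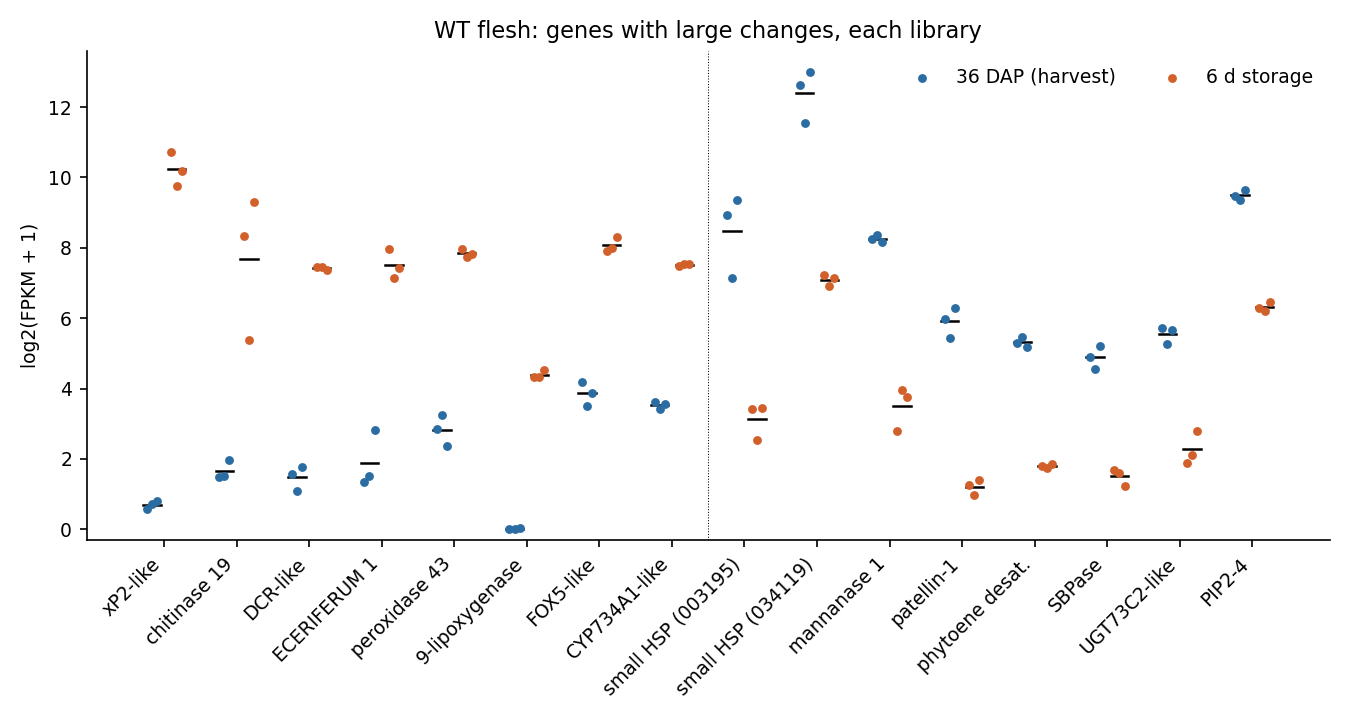
Level of 16 genes as log2(FPKM + 1) in each of the 3 libraries at 36 DAP (blue) and the 3 after storage (orange), with the group mean as a line, for genes that rose (left of the dotted line) and that fell (right of it). In all 16 genes the groups do not overlap. The sets of largest changes were chosen for no overlap, so that for genes from them this is no further support. The chitinase and the small heat shock genes show the widest spread within a group.

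**Heat shock genes.** Heat shock proteins are chaperones that hold or refold other proteins, and the small class I forms are induced by heat. In WT flesh several small forms fell strongly, while other members of the family, a small class I form among them, rose. Of the 100 heat shock genes tested, 34 were lower, above the background share, and 24 higher, near it, with 19 and 11 of these past the fold threshold. The *17.8 kDa class I heat shock protein* gene MELO3C034119.2 (chromosome 10, 9052792 to 9053003) fell from 6349.9, 3003 and 8183 FPKM to 149, 119 and 141 FPKM. It was thus among the genes of highest FPKM in the flesh at harvest and stood 42.9 ± 19.9-fold lower after storage (log2 fold change -5.30, SE 0.22, adjusted p = 2.5e-16). The span of this gene model is short for a protein of 17.8 kDa, and FPKM are scaled to length. Its level against other genes is therefore uncertain. The *18.1 kDa* gene MELO3C003195.2 fell from 485, 139.5 and 651 FPKM to 9.60, 4.84 and 9.85 FPKM, and MELO3C026374.2 from 127, 51.9 and 171 FPKM to 3.6, 2.04 and 2.80 FPKM (adjusted p = 1.1e-12 and 2.5e-14). In all 3 genes the library of 36 DAP replicate 2 was the lowest of its group and replicate 3 the highest. Without replicate 2 the log2 fold change of MELO3C003195.2 went from -5.34 to -6.01.

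These falls start from a high point. The list summed to 7160 to 13595 FPKM in the libraries of 36 DAP, against 4828 to 5154 FPKM at 33 DAP, 5066 to 5412 FPKM at 39 DAP and 4384 to 4524 FPKM after storage. The libraries of 36 DAP thus stood apart from those of the other vine stages in this sum, but much of it was 1 gene. MELO3C034119.2 alone gave 6350, 3003 and 8183 FPKM at 36 DAP. At 33 DAP it gave 367, 524 and 520.5 FPKM, and at 39 DAP 1918, 1852 and 2135 FPKM. The sum therefore does not describe the family as a whole. The labels name no condition that could be set beside the high sum of 36 DAP, and its part in the falls was not tested. Against the mean of 33 and 39 DAP the falls were smaller and still past the adjusted p. The log2 fold change was then -2.81 for MELO3C034119.2, -1.57 for MELO3C003195.2 and -2.77 for MELO3C026374.2. The *heat shock 70 kDa protein* gene MELO3C003917.2 stood at 219, 94.0 and 341 FPKM before and 38.2, 27.8 and 31.1 FPKM after storage, a level like the 30.4 ± 3.61 FPKM of 33 DAP. Its log2 fold change was -2.54 (adjusted p = 8.6e-08), and -0.73 against 33 and 39 DAP (adjusted p = 0.028). The *22.0 kDa* gene MELO3C018485.2 fell from 21.3, 6.29 and 29.2 FPKM to 0.833, 0.706 and 0.755 FPKM (adjusted p = 4.8e-10), with a log2 fold change of -3.27, and of -3.88 without 36 DAP replicate 2.

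The opposite change was seen in other members. *18.5 kDa class I heat shock protein-like* (MELO3C020588.2) rose from 16.4, 21.7 and 14.3 FPKM to 112, 107 and 102 FPKM, and *heat shock cognate 70 kDa protein 2-like* (MELO3C021658.2) from 41.4, 55.9 and 40.8 FPKM to 233, 235 and 233 FPKM (adjusted p = 3.0e-15 and 6.3e-13). Their stored levels were close to those of 33 DAP, at 86.4 ± 6.46 and 199 ± 29.3 FPKM, and the levels at 39 DAP, at 20.8 ± 0.651 and 68.0 ± 4.12 FPKM, were close to those of harvest.

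**Figure D3:**
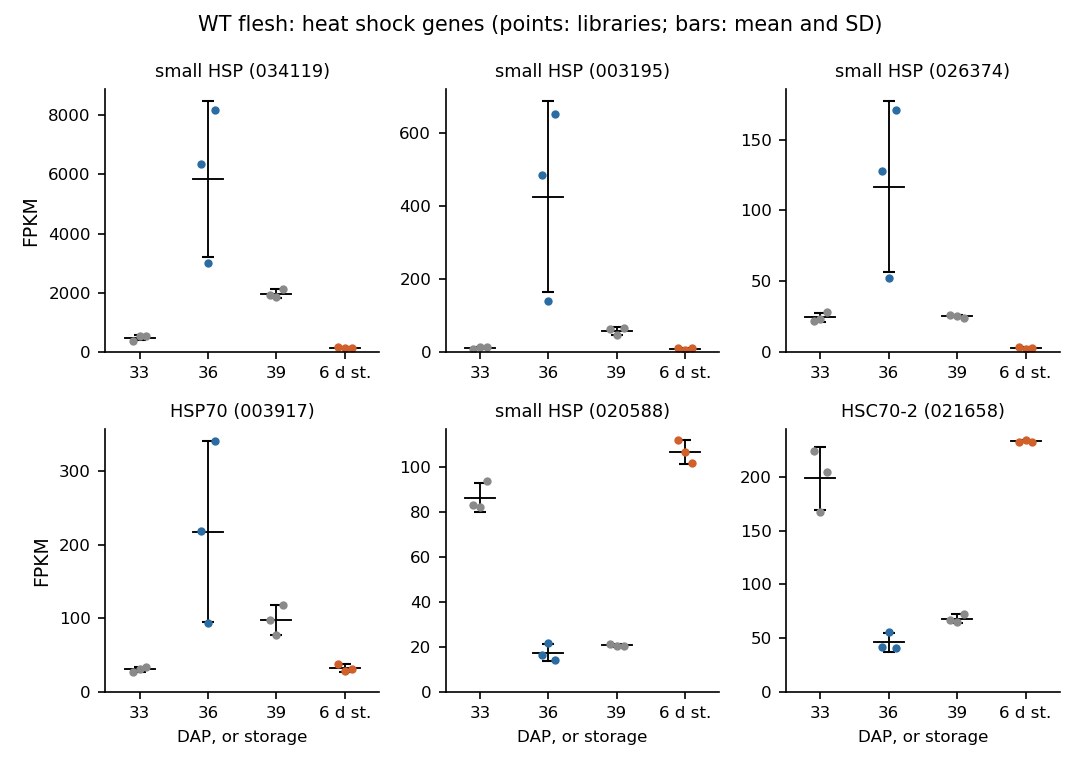
FPKM of 6 heat shock genes in each WT library from the vine (33, 36 and 39 DAP) and from stored fruit (6 d) (x axis), with group means and SD as bars; the digits of the identifier stand in brackets. The small class I genes MELO3C034119.2, MELO3C003195.2 and MELO3C026374.2 peak at 36 DAP, with replicate 2 the lowest, whereas MELO3C020588.2 and MELO3C021658.2 are low at 36 DAP and high after storage.

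**Ethylene.** Genes for ethylene synthesis were more often lower than higher after storage, but the most abundant of them was not past the test. Of the 25 tested, 9 were lower and 2 higher. *ACC oxidase 1* (MELO3C014437.2, chromosome 5, 2408689 to 2410670), of the enzyme that makes ethylene, stood at 7215, 8553 and 7209 FPKM at 36 DAP and 10867, 10745 and 11725 FPKM after storage. The groups did not overlap, with the stored one 1.45 ± 0.162-fold higher, but the adjusted p was 0.094. It therefore remained one of the most abundant transcripts of stored flesh. A second ACC oxidase gene, MELO3C019735.2 (chromosome 11, 23244951 to 23246562), fell from 358, 317 and 363 FPKM to 74.6, 50.3 and 85.7 FPKM (log2 fold change -2.32, SE 0.17, adjusted p = 1.5e-11). *S-adenosylmethionine synthase 2-like* (MELO3C023606.2), which supplies the precursor, fell from 466, 512 and 537 FPKM to 270.1, 168 and 215 FPKM (adjusted p = 2.6e-07). The *ACC oxidase homolog 1-like* gene MELO3C026436.2, named for its sequence, fell from 1282, 1512 and 1340.2 FPKM to 676, 628 and 600.4 FPKM (adjusted p = 1.6e-08).

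In ethylene perception and signaling 6 of 20 genes were higher and 6 lower, all but 1 of them by less than the fold threshold. *ETHYLENE INSENSITIVE 3* (MELO3C015633.2), a transcription factor that switches on ethylene responses, fell from 152, 157 and 164 FPKM to 108, 96.6 and 101 FPKM, and *ETHYLENE INSENSITIVE 3-like 1* (MELO3C019931.2) from 251, 234 and 231 FPKM to 158, 146 and 149 FPKM (adjusted p = 2.1e-06 and 3.5e-10). The genes for F-box proteins that mark them for breakdown were split. The *EIN3-binding F-box protein 1* gene MELO3C003696.2 rose from 37.4, 42.8 and 36.1 FPKM to 81.2, 77.0 and 67.6 FPKM, and the related MELO3C004498.2 fell from 80.0, 91.6 and 85.4 FPKM to 37.5, 37.8 and 38.5 FPKM (adjusted p = 2.9e-07 and 5.3e-10). The ethylene receptor gene MELO3C006451.2 rose from 80.8, 74.4 and 68.7 FPKM to 114, 107 and 103 FPKM (adjusted p = 3.4e-05). The rises of MELO3C003696.2 and MELO3C006451.2 hold against 36 DAP only. Against the mean of 33 and 39 DAP their log2 fold changes were -0.25 and -0.15.

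**Transcription factors.** Among the ethylene-responsive transcription factors, which carry the AP2/ERF domain, 36 of 116 were lower and 9 higher, and 20 and 2 of these passed the fold threshold. The higher ones were 5 without stored replicate 1. *RAP2-4-like* (MELO3C011364.2), one of the abundant ones, fell from 426, 472 and 459 FPKM to 136, 144 and 153 FPKM (log2 fold change -1.64, SE 0.08, adjusted p = 7.6e-15). *RAP2-3-like* (MELO3C021306.2), which the study picked, fell from 192, 175 and 249 FPKM to 111, 74.3 and 75.6 FPKM (adjusted p = 8.2e-08). *ABR1* (MELO3C008014.2), a repressor of abscisic acid responses in *Arabidopsis*, fell from 9.54, 4.75 and 16.3 FPKM to 1.06, 0.210 and 0.148 FPKM (adjusted p = 2.2e-08). On the vine it stood at 191, 85.5 and 167.5 FPKM at 33 DAP and was already at 1.37, 1.10 and 1.25 FPKM at 39 DAP.

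The fall of *ERF8* (MELO3C002624.2), also picked by the study, is the clearest case that rests on the stage of harvest. This factor stood at 76.3, 73.5 and 77.6 FPKM at 36 DAP and at 12.3, 8.21 and 12.1 FPKM after storage, a 6.96 ± 1.5-fold difference (adjusted p = 5.9e-09). At 33 and 39 DAP it was at 10.3 ± 2.41 and 5.41 ± 1.10 FPKM, so that the stored level lay 0.48 above the mean of those stages on the log2 scale. The zinc finger gene *ZAT10-like* (MELO3C016809.2) had the same pattern, with 1066, 1123 and 1052 FPKM at 36 DAP, 543, 383 and 496 FPKM after storage and 496 ± 40.9 FPKM at 33 DAP (log2 fold change -1.20 against harvest and 0.50 against 33 and 39 DAP).

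Among the genes that rose, *WRKY75* (MELO3C008175.2), known in *Arabidopsis* for phosphate starvation and senescence, went from 2.23, 2.67 and 2.81 FPKM to 31.6, 22.5 and 28.4 FPKM (log2 fold change 2.99, SE 0.28, adjusted p = 1.0e-09). It was also at 21.6 ± 5.12 FPKM at 39 DAP. Of the 63 WRKY genes 9 were higher and 12 lower, and of the 66 NAC genes 11 were higher and 10 lower, both below or near the background. The higher NAC genes were 7 without 36 DAP replicate 2. *NAC domain-containing protein 83-like* (MELO3C017754.2) fell from 124, 189 and 134 FPKM to 42.5, 73.9 and 70.7 FPKM (adjusted p = 7.7e-06). Of the 48 MADS-box genes 8 were higher and 1 lower, and without 36 DAP replicate 2 they were 5 and 2. The *AGAMOUS* gene MELO3C019694.2, of a floral organ regulator, rose from 272, 135 and 218 FPKM to 358, 379.9 and 425 FPKM (adjusted p = 4.6e-04).

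**Cell wall.** Several polygalacturonase genes and a beta-galactosidase gene that were abundant at harvest fell, while other genes of pectin breakdown rose. Of the 68 polygalacturonase and pectate lyase genes 16 were higher (23.5%) and 10 lower (14.7%), both near the background, with 5 and 7 past the fold threshold. The polygalacturonase gene MELO3C027277.2, of an enzyme that cuts pectin, fell from 327, 357 and 263 FPKM to 48.2, 41.5 and 41.3 FPKM (log2 fold change -2.82, SE 0.37, adjusted p = 5.6e-07). It is placed on unanchored sequence (chromosome 0, 5905647 to 5906159). MELO3C016494.2 (chromosome 6, 28763801 to 28765960), with the same description, went from 168, 203 and 141 FPKM to 30.2, 23.0 and 24.9 FPKM (adjusted p = 7.0e-07). The levels of the pair ran in parallel over the libraries, and reads may have been shared between them. MELO3C015128.2 fell from 133, 162 and 123 FPKM to 48.9, 41.1 and 39.3 FPKM (adjusted p = 1.0e-06), a level it had also reached at 39 DAP, at 39.2 ± 4.99 FPKM. These 3 genes form, with an XTH gene that did not pass the test (MELO3C017481.2, log2 fold change -0.28, adjusted p = 0.22), the softening list of the study. The study took them from its ripening series on the vine, in which it describes them as highly expressed in flesh. That series held the libraries of harvest but not the stored ones. The list is thus not independent of the libraries of harvest. The XTH gene passed the test downward with a pseudocount of 0.1 (log2 fold change -1.11, adjusted p = 0.0072) and against the mean of 33 and 39 DAP (-1.27, adjusted p = 6.9e-08).

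A further polygalacturonase gene, MELO3C006690.2, fell from 58.1, 39.4 and 68.5 FPKM to 11.5, 7.23 and 8.38 FPKM (adjusted p = 4.5e-11). In contrast MELO3C013129.2 (chromosome 1, 12887684 to 12890250), also described as *polygalacturonase-like*, rose from 27.0, 36.8 and 19.1 FPKM to 117, 117 and 119.5 FPKM. With this 4.26 ± 1.37-fold rise (adjusted p = 1.2e-08) it became the most abundant of the polygalacturonase genes named here. The *rhamnogalacturonate lyase B* gene MELO3C003506.2 rose from 103, 114 and 94.1 FPKM to 188, 184 and 167 FPKM (adjusted p = 1.8e-04).

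The beta-galactosidase gene MELO3C015470.2 (chromosome 2, 2002073 to 2007432), whose enzyme trims galactan side chains, fell from 1821, 1918 and 1695 FPKM to 553, 617 and 548 FPKM, 3.16 ± 0.288-fold (adjusted p = 3.0e-09). The stored level was also below the 1101 ± 20.4 FPKM of 39 DAP. *Alpha-mannosidase* (MELO3C007919.2) fell from 80.3, 47.7 and 94.5 FPKM to 10.6, 6.02 and 6.95 FPKM (adjusted p = 1.6e-11). In the list of wall glycosidases, 22 of 117 were higher (18.8%, near the background) and 12 lower (10.3%, below it).

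Xyloglucan endotransglucosylase/hydrolases (XTHs) cut and rejoin xyloglucan, and expansins loosen the wall. *XTH30* (MELO3C003441.2) rose from 339.7, 328 and 356 FPKM to 875, 709 and 778 FPKM (adjusted p = 2.7e-07), and *XTH23* (MELO3C017478.2) fell from 50.5, 27.4 and 53.2 FPKM to 21.0, 4.04 and 4.46 FPKM (adjusted p = 4.9e-05). *Expansin-A8-like* (MELO3C020005.2) fell from 29.6, 25.8 and 27.2 FPKM to 3.80, 2.34 and 2.59 FPKM, and *expansin-A10* (MELO3C001993.2) rose from 0.258, 0.349 and 0.0413 FPKM to 7.41, 6.21 and 6.67 FPKM (adjusted p = 4.0e-15 and 6.1e-13). Pectinesterases demethylate pectin. *Pectinesterase 3* (MELO3C022701.2) fell from 174, 162 and 224 FPKM to 87.6, 81.1 and 82.7 FPKM, and *pectinesterase 67* (MELO3C031619.2) rose from 10.5, 6.41 and 7.29 FPKM to 14.9, 16.7 and 18.6 FPKM (adjusted p = 2.0e-07 and 1.9e-07).

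Structural wall proteins, namely extensins and arabinogalactan proteins, were lower in 25 of 117 genes (21.4%, near the background) and higher in 10 (8.55%, below it). The neighboring gene models MELO3C004549.2 and MELO3C004550.2, both described as *leucine-rich repeat extensin-like protein 4*, fell together. The former went from 174, 112 and 206 FPKM to 69.3, 10.8 and 15.3 FPKM and the latter from 48.9, 41.6 and 68.9 FPKM to 21.4, 3.62 and 6.42 FPKM (adjusted p = 1.5e-06 and 5.1e-07). Stored replicate 1 was the highest of its group in both, and in *XTH23*. Without it the log2 fold changes went from -2.75 to -3.53, from -2.53 to -3.18 and, for *XTH23* (MELO3C017478.2), from -2.34 to -3.03.

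**Figure D4:**
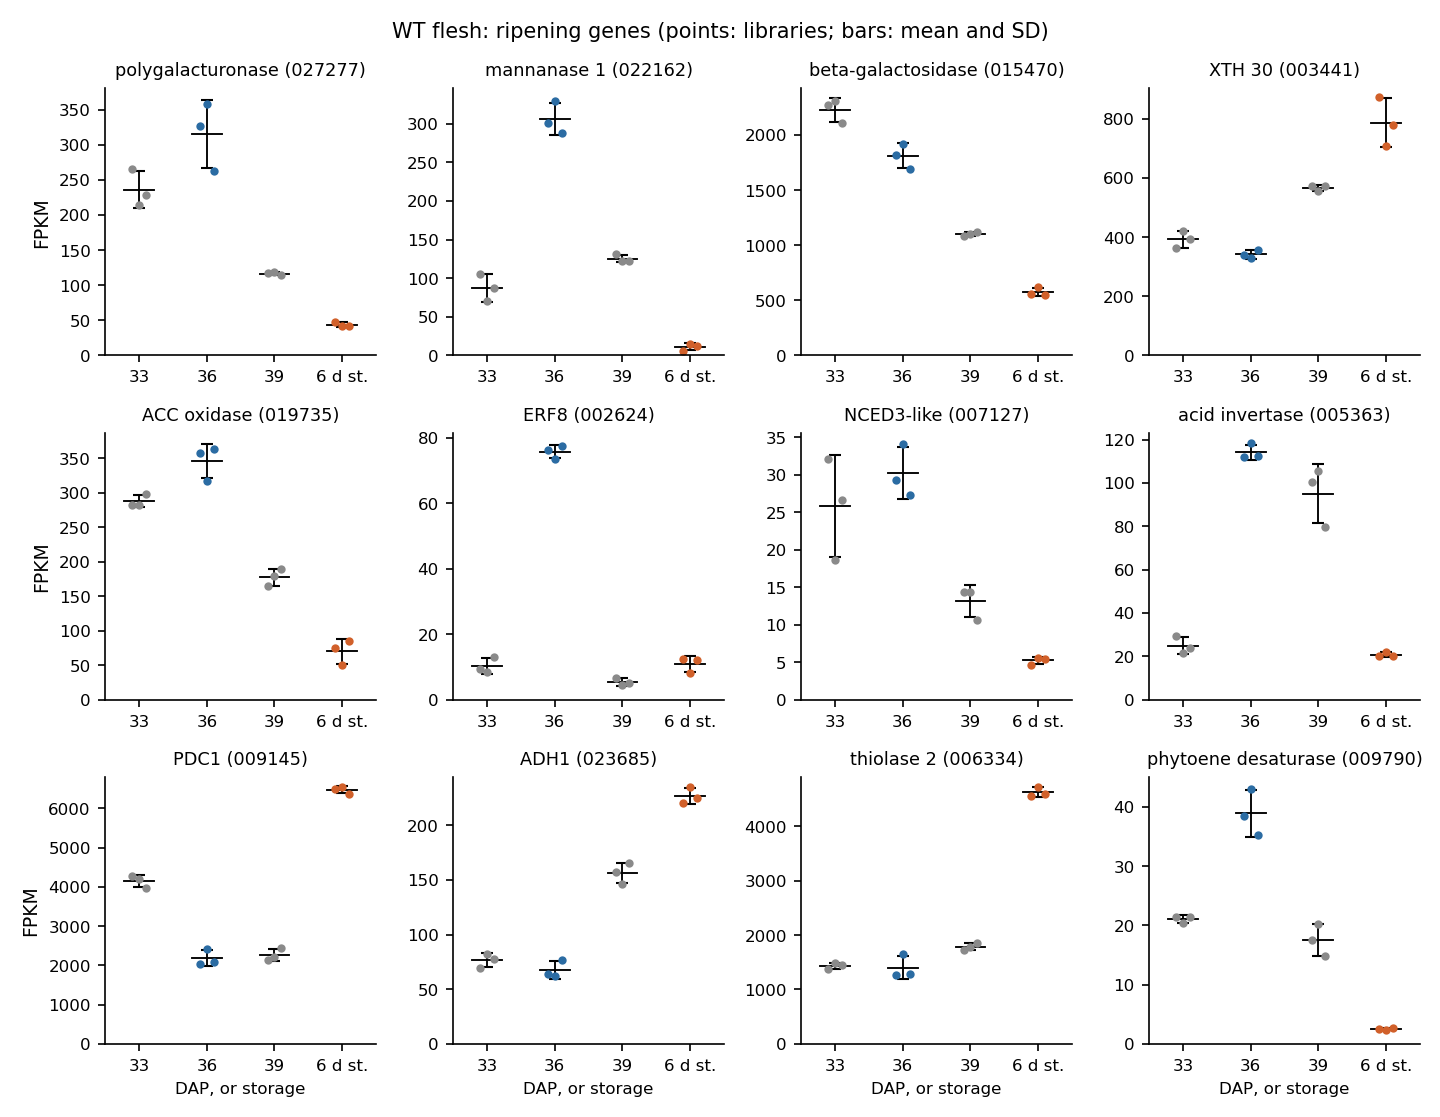
FPKM of 12 genes of the wall, ethylene, sugar, aroma and carotenoid groups in each WT library from the vine (33, 36 and 39 DAP) and from stored fruit (6 d), with group means and SD as bars and the digits of the identifier in brackets. *ERF8* and the acid invertase gene are about as low after storage as at 33 DAP, whereas pyruvate decarboxylase, alcohol dehydrogenase and thiolase are higher after storage than in any library from the vine.

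**Fermentation, fatty acids and aroma.** The main genes named here for acetaldehyde and alcohol formation, and single genes of peroxisomal fatty acid breakdown, rose, their lists held genes of both directions, and the main ester-forming gene was not past the test. Pyruvate decarboxylase turns pyruvate into acetaldehyde, which alcohol dehydrogenase reduces to ethanol. *Pyruvate decarboxylase 1* (MELO3C009145.2, chromosome 4, 33965002 to 33967779) rose from 2032, 2418 and 2088 FPKM to 6501, 6554 and 6372 FPKM (log2 fold change 1.57, SE 0.11, adjusted p = 3.2e-12). *Alcohol dehydrogenase 1* (MELO3C023685.2) rose from 64.0, 61.9 and 76.6 FPKM to 221, 236 and 225 FPKM (adjusted p = 1.8e-10). Both were above all 9 WT libraries from the vine, of which the means for *alcohol dehydrogenase 1* were 76.5 ± 6.54 FPKM at 33 DAP and 156 ± 9.45 FPKM at 39 DAP. Of the 16 genes in this list 5 were higher and 4 lower, and the *alcohol dehydrogenase-like 7* gene MELO3C026554.2 fell from 87.4, 78.4 and 97.0 FPKM to 46.8, 35.6 and 38.8 FPKM (adjusted p = 1.9e-10).

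*3-ketoacyl-CoA thiolase 2* (MELO3C006334.2), of the last step of peroxisomal beta-oxidation, rose from 1272, 1645 and 1286 FPKM to 4552, 4730.2 and 4591 FPKM, and *acyl-coenzyme A oxidase 3* (MELO3C019320.2), of the entry step, from 17.1, 14.9 and 13.7 FPKM to 47.0, 51.9 and 48.6 FPKM (adjusted p = 9.7e-13 and 1.2e-15). Of the 86 lipid breakdown genes 14 were higher (16.3%, below the background) and 17 lower. *Methionine gamma-lyase* (MELO3C013774.2), which releases methanethiol from methionine, rose from 30.7, 28.6 and 32.1 FPKM to 158, 127 and 134 FPKM (adjusted p = 1.8e-13). Its stored level was like the 139.7 ± 7.30 FPKM of 33 DAP. The benzoyltransferase gene MELO3C024771.2, at 12310.3, 12399 and 11902 FPKM before and 10504, 11438 and 11777 FPKM after storage, had a log2 fold change of -0.12 (SE 0.25, adjusted p = 0.86).

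The lipoxygenase pathway oxidizes linoleic and linolenic acid, and its 13-branch leads through allene oxide synthase and cyclase to jasmonates. Of its 44 genes 14 were higher and 6 lower. The 13-lipoxygenase gene MELO3C014637.2 rose from 4.76, 2.69 and 3.44 FPKM to 26.9, 26.5 and 29.0 FPKM (adjusted p = 1.9e-14), beside the 9-lipoxygenase gene MELO3C004252.2 described above. Another 9-lipoxygenase gene, MELO3C014482.2, fell from 48.4, 33.5 and 43.8 FPKM to 12.8, 9.32 and 10.9 FPKM (adjusted p = 3.6e-11). *Allene oxide synthase 2-like* (MELO3C018413.2), by far the most abundant of these, fell from 2913, 3481 and 2659.6 FPKM to 1085, 1134 and 1050.0 FPKM, whereas *allene oxide cyclase 4* (MELO3C022090.2) rose from 123, 104 and 121 FPKM to 218, 242 and 233 FPKM (adjusted p = 3.7e-09 and 1.4e-05). Steps of the same branch thus moved in opposite directions.

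**Carotenoids and abscisic acid.** The entry gene of carotenoid synthesis did not pass the test, and of the later steps some genes fell and others did not pass it, while genes of the branch to abscisic acid fell. *PSY1* (MELO3C025102.2, chromosome 9, 14553133 to 14556862) stood at 185, 217 and 175 FPKM before and 186, 205 and 199.7 FPKM after storage (log2 fold change 0.04, SE 0.08, adjusted p = 0.89). The groups overlapped. Against the mean of 33 and 39 DAP *PSY1* passed the test upward, with a log2 fold change of 0.24 (adjusted p = 0.01). *PSY2* (MELO3C014677.2) rose from 23.0, 21.5 and 15.2 FPKM to 31.5, 41.5 and 37.1 FPKM (adjusted p = 3.8e-05, and 0.051 with a pseudocount of 0.1). The phytoene desaturase gene MELO3C009790.2 (chromosome 4, 29240190 to 29242004) fell from 38.4, 43 and 35.2 FPKM to 2.48, 2.34 and 2.63 FPKM, 15.6 ± 1.82-fold (adjusted p = 1.6e-16), while the more abundant *phytoene dehydrogenase* gene MELO3C017772.2 stood at 298, 276 and 280.3 FPKM before and 289, 332 and 315 FPKM after storage (adjusted p = 0.41).

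*Zeta-carotene desaturase* (MELO3C024674.2) fell from 139, 148 and 142 FPKM to 89.7, 97.5 and 90.2 FPKM, and *prolycopene isomerase* (MELO3C016495.2) from 38.8, 36.7 and 37.6 FPKM to 14.9, 16.6 and 15.7 FPKM (adjusted p = 2.4e-07 and 6.9e-11). *Lycopene beta cyclase* (MELO3C020744.2), which makes beta-carotene, stood at 19.6, 20 and 20 FPKM before and 19.1, 18.1 and 20.6 FPKM after storage (adjusted p = 0.8). In all, 6 of 29 genes of carotenoid synthesis and cleavage were higher (20.7%, near the background) and 8 lower (27.6%, above it). *Zeaxanthin epoxidase* (MELO3C020872.2), at the branch to abscisic acid, fell from 17.7, 17.3 and 17.5 FPKM to 6.53, 6.36 and 6.96 FPKM (adjusted p = 9.5e-10).

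9-cis-epoxycarotenoid dioxygenase (NCED) is the committed step of abscisic acid synthesis. The *NCED3-like* gene MELO3C007127.2 (chromosome 8, 991369 to 993401) fell from 29.3, 34.1 and 27.3 FPKM to 4.67, 5.52 and 5.48 FPKM, and the more abundant MELO3C027057.2 from 500.4, 611 and 399 FPKM to 159, 205 and 179.6 FPKM (adjusted p = 2.2e-13 and 4.3e-06). For MELO3C027057.2 the stored level equalled the 179 ± 32.1 FPKM of 39 DAP. Of the 34 genes of abscisic acid synthesis and signaling 11 were lower and 5 higher.

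**Sugars.** Sucrose metabolism had a large share of lower genes, at 13 of 28, with 2 higher (1 without 36 DAP replicate 2 or stored replicate 2). The acid invertase gene MELO3C005363.2 (chromosome 9, 20902757 to 20908682), of the enzyme that splits sucrose in the vacuole or wall, fell from 112, 118 and 112 FPKM to 20.2, 22.1 and 20 FPKM (log2 fold change -2.4, SE 0.19, adjusted p = 5.0e-11). *Sucrose synthase 2* (MELO3C017942.2) fell from 133, 90.2 and 146 FPKM to 71.8, 73.7 and 81 FPKM, and *sucrose-phosphate synthase 1* (MELO3C010300.2), of sucrose synthesis, from 97.3, 71.1 and 99.9 FPKM to 56.2, 54.0 and 54.4 FPKM (adjusted p = 3.4e-04 and 2.0e-04). Starch genes were lower in 11 of 34 and higher in 4, with *beta-amylase 1* (MELO3C023067.2) at 251, 303 and 249 FPKM before and 119, 125 and 114 FPKM after storage (adjusted p = 8.7e-04).

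Sugar transporters moved both ways, with 13 of 63 higher (20.6%) and 14 lower (22.2%), near the background in both directions. SWEET proteins let sugar pass membranes along its gradient. The *SWEET12-like* gene MELO3C002381.2 rose from 39.2, 46.3 and 34.9 FPKM to 140.3, 244 and 218 FPKM, and the other gene of that description, MELO3C026183.2, fell from 35.7, 46.5 and 20.6 FPKM to 7.92, 8.39 and 7.52 FPKM (adjusted p = 1.5e-08 and 2.3e-07). *Sugar transport protein 13* (MELO3C014485.2), a proton-driven hexose carrier in *Arabidopsis*, stood at 0.482, 0.489 and 5.27 FPKM at 36 DAP and at 169, 7.84 and 33.1 FPKM after storage. It passed the test (log2 fold change 3.95, SE 0.63, adjusted p = 9.7e-06), with a wide gap between the stored libraries. Leaving out a library moved this value most without stored replicate 1, to 2.85, and without stored replicate 2, to 4.99, and it was 4.64 without 36 DAP replicate 3.

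**Plastid genes.** Nuclear genes for carbon fixation fell at several steps. The *Rubisco small subunit* gene MELO3C012252.2 fell from 793, 762 and 719 FPKM to 94.9, 110.0 and 116 FPKM, and *glyceraldehyde-3-phosphate dehydrogenase B* (MELO3C017044.2), of the reduction step, from 214, 229 and 238 FPKM to 35.6, 43.5 and 40.0 FPKM (adjusted p = 9.3e-13 and 2.6e-14). At 39 DAP the latter was already at 44.8, 51.7 and 36.7 FPKM, near its stored level, and the former at 246, 278 and 147.5 FPKM. *Sedoheptulose-1,7-bisphosphatase* (MELO3C025149.2) fell from 28.8, 22.4 and 36.2 FPKM to 2.19, 2.05 and 1.36 FPKM, 15.6 ± 5.22-fold (adjusted p = 6.8e-16). Of the 106 genes that the table assigns to carbon fixation 32 were lower (30.2%, above the background) and 25 higher (23.6%, near it). That pathway entry also takes in cytosolic enzymes, such as *glyceraldehyde-3-phosphate dehydrogenase 2* (MELO3C002342.2), which rose from 806, 846 and 904 FPKM to 1135, 1175 and 1167 FPKM (adjusted p = 1.2e-05), and its largest rise was that of a gene that codes for no enzyme of the cycle, the metal transporter gene *YSL7* (MELO3C008139.2), from 65.6, 67.6 and 71.2 FPKM to 533, 536 and 501 FPKM (adjusted p = 3.2e-14).

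Photosystem and antenna genes were lower in 22 of 85 and higher in 10, and the latter were 4 without 36 DAP replicate 3 and 5 without stored replicate 2 or 3. The antenna gene MELO3C002727.2 stood at 4589, 7526 and 4107 FPKM before and 7718, 9114 and 8178 FPKM after storage (adjusted p = 0.0071). The log2 fold change was 0.67. This call was lost with the fold change at 0.67 in fits of only the 6 libraries compared (adjusted p = 0.14) or the 12 WT libraries (adjusted p = 0.057), and without 36 DAP replicate 3 (log2 fold change 0.50, adjusted p = 0.067). Its relative MELO3C019677.2 fell from 2497, 3979 and 2366 FPKM to 1373, 1735 and 1719 FPKM (adjusted p = 3.6e-04). In chlorophyll breakdown, *STAY-GREEN* (MELO3C005616.2), of the magnesium-removing enzyme, rose from 179, 201 and 163 FPKM to 279, 333 and 368 FPKM, and *red chlorophyll catabolite reductase-like* (MELO3C020913.2), further down the path, fell from 134, 144 and 133 FPKM to 40.5, 36.4 and 35.3 FPKM (adjusted p = 4.0e-04 and 3.5e-15).

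**Ribosome, proteasome and redox enzymes.** The broadest shift was a small rise of cytosolic ribosomal protein genes. Of the 206 tested, 145 were higher and 6 lower, at a median log2 fold change of 0.47 against 0.00 over all genes, and 22 passed the fold threshold upward and 0 downward. The lower ones were 2 without 36 DAP replicate 2 and 3 without stored replicate 2 or 3. The largest rise among these was that of *40S ribosomal protein S15a-1* (MELO3C020704.2), from 16, 4.16 and 11.2 FPKM to 35.6, 44.2 and 56.6 FPKM (adjusted p = 1.4e-05), and one of the abundant members, *60S ribosomal protein L10-like* (MELO3C022104.2), went from 208, 222 and 214 FPKM to 316, 299 and 331 FPKM (adjusted p = 1.6e-07). Ribosomal proteins come in near-identical copies among which reads can be split. Proteasome genes behaved likewise, with 28 of 50 higher, 1 lower (3 without 36 DAP replicate 2 and 2 without stored replicate 2) and a median of 0.28. *Proteasome subunit beta type-7-A* (MELO3C027069.2) rose from 46.6, 35.5 and 46.2 FPKM to 99.2, 117 and 113 FPKM (adjusted p = 1.6e-10), and the gene that fell, MELO3C018414.2, codes for an assembly chaperone.

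Of the 82 antioxidant genes 32 were higher and 12 lower. The cytosolic *L-ascorbate peroxidase* gene MELO3C020719.2, of an enzyme that removes hydrogen peroxide, rose from 327, 344 and 348 FPKM to 662, 639 and 718 FPKM, and *catalase isozyme 1* (MELO3C017023.2) from 528, 576 and 566 FPKM to 739.7, 819 and 834 FPKM (adjusted p = 1.6e-10 and 3.6e-04). A superoxide dismutase gene, MELO3C026955.2, fell from 89.1, 82.3 and 95.9 FPKM to 32.3, 32.4 and 32.2 FPKM (adjusted p = 2.5e-11), against 38.7, 42.0 and 32.4 FPKM at 39 DAP. Cell cycle genes were higher in 43 of 196 (21.9%, near the background) and lower in 17 (8.67%, below it). The higher ones were 28 without 36 DAP replicate 2. The median was 0.15 over the antioxidant genes. Medians over all members tested include many genes near 0 in every library. Over the members whose mean reached 1 FPKM other lists also lay away from the 0.01 of all such genes. This median was -0.94 for ethylene-responsive transcription factors, -0.76 for alcohol acyltransferases, -0.67 for sucrose metabolism and for structural wall proteins, 0.51 for MADS-box genes and 0.46 for the lipoxygenase pathway, against 0.52 for cytosolic ribosomal proteins. These medians are a description, since a gene can reach that level through the group in which it is higher.

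**Figure D5:**
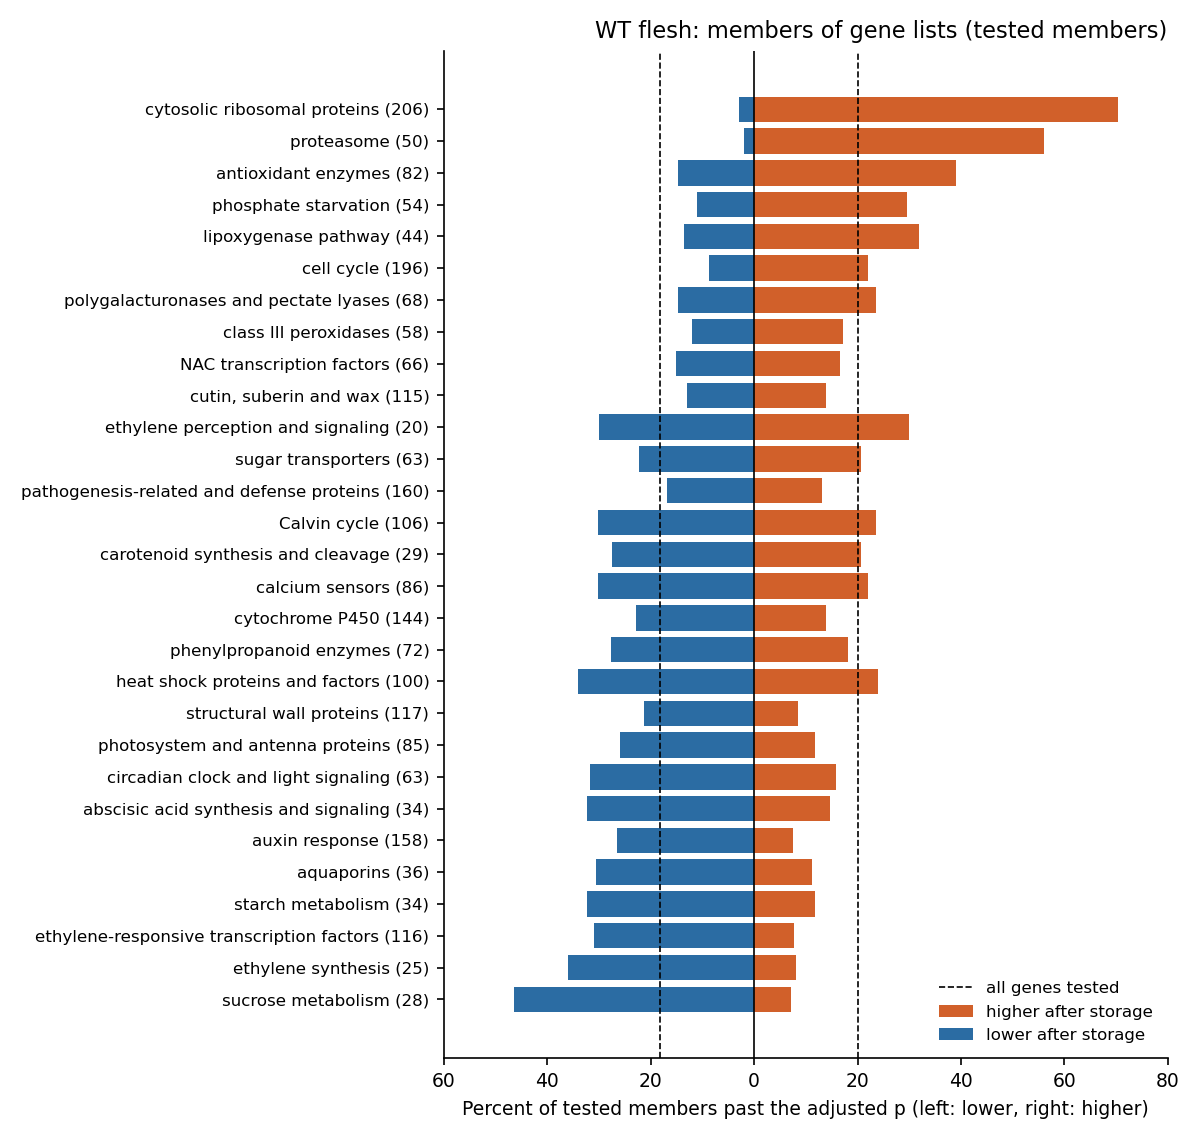
Percent of the tested members of 29 gene lists that were past the adjusted p, lower after storage to the left and higher to the right, with the number tested in brackets and dashed lines at the shares over all genes tested. Cytosolic ribosomal proteins (145 of 206 higher) reach farthest to the right and sucrose metabolism (13 of 28 lower) farthest to the left.

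**Water, calcium and hormones.** Aquaporins were lower in 11 of 36 genes and higher in 4, but the most abundant did not pass the test. *PIP2-10* (MELO3C013347.2) stood at 7050.5, 9740.4 and 7185 FPKM before and 6187, 6511 and 5919 FPKM after storage (adjusted p = 0.23), and *PIP1-2* (MELO3C005685.2) at 3673, 5643 and 3968 FPKM before and 5166, 5691 and 5236 FPKM after storage (adjusted p = 0.063). Without 36 DAP replicate 2, the highest library of that group, *PIP1-2* passed the test upward, with a log2 fold change of 0.49 (adjusted p = 0.0015). It also passed at 0.30 with a filter on low values (adjusted p = 0.035) and against the mean of 33 and 39 DAP (adjusted p = 0.037). The dehydrin gene *DHN1* (MELO3C016401.2), of a protein made under water loss, rose from 12.1, 10 and 8.98 FPKM to 20.9, 16.3 and 19.9 FPKM (adjusted p = 0.013), a call lost without 36 DAP replicate 3 (adjusted p = 0.055) and with a pseudocount of 0.1 (adjusted p = 0.22). The water and wall list of the study, picked on these libraries, had 7 of 13 genes higher and 3 lower, and its ethylene and pathogen list 1 of 10 higher and 7 lower, which is no independent evidence of direction.

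Calcium sensors, which bind calcium through EF-hands, were lower in 26 of 86 (30.2%, above the background) and higher in 19 (22.1%, near it). *CML10* (MELO3C010869.2) fell from 25.0, 30.4 and 26.0 FPKM to 3.6, 2.36 and 2.53 FPKM and *CML27* (MELO3C017353.2) from 133, 120.1 and 173 FPKM to 36.7, 32.5 and 27.5 FPKM (adjusted p = 1.6e-11 and 1.0e-08). At 39 DAP *CML10* was already at 3.44, 4.24 and 3.54 FPKM, near its stored level, and *CML27* at 144, 141 and 135 FPKM. *Calmodulin-1* (MELO3C015602.2), the most abundant of the list, rose from 291, 377 and 366 FPKM to 471, 460.3 and 482 FPKM (adjusted p = 3.8e-04).

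Auxin response genes were lower in 42 of 158 and higher in 12. *SAUR78* (MELO3C024323.2, chromosome 1, 36012417 to 36013119), an auxin-induced gene picked by the study, fell from 59.4, 60.3 and 78.6 FPKM to 13.4, 8.14 and 7.55 FPKM, 6.81 ± 2.53-fold (adjusted p = 3.7e-14), against 99.3 ± 14.5 FPKM at 33 DAP and 141 ± 7.70 FPKM at 39 DAP. The stored level thus left the whole range of the vine. *IAA29-like* (MELO3C011268.2), of an auxin repressor protein, fell from 46.7, 60.3 and 36.7 FPKM to 9.31, 12.6 and 11.0 FPKM (adjusted p = 3.2e-05), and *SAUR36* (MELO3C022337.2) rose from 24.0, 32.3 and 32.8 FPKM to 103, 98.3 and 91.9 FPKM (adjusted p = 2.2e-11), a level seen before at 33 DAP, with a mean of 102 FPKM.

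**Phosphate, nitrate and clock genes.** Phosphate-starvation genes were higher in 16 of 54 and lower in 6. *SPX domain-containing protein 1* (MELO3C010343.2), a sensor of the phosphate state, rose from 2.18, 2.69 and 2.55 FPKM to 14.6, 8.21 and 16.5 FPKM (adjusted p = 3.3e-07), a level also reached at 39 DAP, with a mean of 17.1 FPKM. Nitrate and peptide transporters were higher in 11 of 79 (13.9%, below the background) and lower in 13 (16.5%, near it). *NRT1/PTR FAMILY 2.13-like* (MELO3C012055.2), of the nitrate and peptide transporter family, fell from 560.1, 521 and 599.9 FPKM to 163, 159.5 and 194 FPKM, and *nitrate reductase* (MELO3C022772.2) from 18.8, 14.4 and 26.1 FPKM to 6.18, 4.26 and 4.77 FPKM (adjusted p = 1.2e-13 and 2.7e-09).

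Of the 63 genes of the clock and light signaling 20 were lower and 10 higher. *GIGANTEA-like* (MELO3C030034.2) rose from 21.5, 17.4 and 18.8 FPKM to 51.5, 54.1 and 49.9 FPKM, *APRR5* (MELO3C005921.2) from 12.6, 9.63 and 14.0 FPKM to 42.0, 38.7 and 36.1 FPKM, and *REVEILLE 2-like* (MELO3C001962.2) fell from 52.5, 45 and 50.7 FPKM to 17.3, 19.8 and 20.2 FPKM (adjusted p = 2.8e-11, 5.7e-12 and 3.0e-10). Transcripts of such genes follow the time of day, which the labels do not give. At 33 and 39 DAP *GIGANTEA-like* had means of 92.4 and 56.5 FPKM and *APRR5* of 33.6 and 46.3 FPKM, so that these genes were low in the libraries of 36 DAP rather than high after storage.

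**Genes whose call rests on the stage of harvest.** For some of the genes above the call depends on the stage taken as reference. Against the mean of 33 and 39 DAP the following did not pass the adjusted p. Among the genes that rose, the log2 fold change then was 0.11 for rhamnogalacturonate lyase B (MELO3C003506.2), 0.17 for *AGAMOUS* (MELO3C019694.2) and for *allene oxide cyclase 4* (MELO3C022090.2), 0.70 for *S15a-1* (MELO3C020704.2), 0.27 for *SAUR36* (MELO3C022337.2) and 0.11 for *calmodulin-1* (MELO3C015602.2). Among those that fell it was -0.28 for *beta-amylase 1* (MELO3C023067.2), -0.12 for *zeta-carotene desaturase* (MELO3C024674.2), -0.30 for *sucrose synthase 2* (MELO3C017942.2) and -0.38 for *oleosin 1-like* (MELO3C011123.2). List counts moved as well. Against that mean, 1 gene of ethylene perception and signaling was higher in place of 6, and 8 calcium sensors in place of 19. The lipoxygenase pathway had 8 higher and 11 lower in place of 14 and 6, and phosphate starvation 8 higher and 10 lower in place of 16 and 6. Of the photosystem and antenna genes 12 were lower in place of 22, and of the lipid breakdown genes 26 in place of 17. A fit of only the 6 libraries compared also gave fewer calls in several lists. The higher genes were then 7 in place of 14 in the lipoxygenase pathway, 11 in place of 22 among wall glycosidases, 2 in place of 6 in carotenoid synthesis and cleavage, 3 in place of 5 in abscisic acid synthesis and signaling, 7 in place of 11 among NAC genes, 4 in place of 8 among MADS-box genes, 13 in place of 21 among defense genes and 4 in place of 10 among photosystem and antenna genes. The lower NAC genes were 6 in place of 10. The large changes of xP2-like (MELO3C016691.2), *peroxidase 43* (MELO3C018672.2), the mannanase (MELO3C022162.2) and *SAUR78* (MELO3C024323.2) passed the test against either reference, with log2 fold changes of 8.01, 3.25, -3.21 and -3.52 against the mean of 33 and 39 DAP.

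**Loci outside the annotation.** Besides melon genes the table holds transcribed loci that carry no melon identifier. Of the 1886 tested, 186 were DEGs higher after storage (9.86%) and 25 lower (1.33%), against 3.51% and 4.54% of the 23015 melon genes tested. Their share of all FPKM was 1.9 to 2.12% at 36 DAP and 2.41 to 2.43% after storage, and it was 2.18 to 2.31% at 33 DAP and 2.68 to 2.87% at 39 DAP. The stored libraries were also the deeper ones, and the part of depth in this excess was not tested.

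**Comparison with the other genotypes.** The same storage interval was measured in *CmNOR/Cmnor* and *Cmnor* fruit, with other libraries at both time points. In *CmNOR/Cmnor* 687 genes were DEGs higher and 1280 lower. Of these, 473 were also higher in WT, which is 47.6% of the WT list and 68.9% of the *CmNOR/Cmnor* list, and 753 were also lower, 70.4% and 58.8%. No gene was a DEG in opposite directions. The response itself differed between WT and *CmNOR/Cmnor* in 1643 genes (interaction in limma, 6.6% of those tested), more positive in WT in 1073 and more negative in 570. Among the WT DEGs this held for 203 that rose and 236 that fell.

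With *Cmnor* the overlap was smaller. It had 1374 DEGs higher, of which 115 were shared with WT (11.6% of the WT list and 8.37% of the *Cmnor* list), and 1645 lower, of which 235 were shared (22% and 14.3%). For 207 genes the DEG call was in opposite directions. The interaction passed the adjusted p in 11419 genes (45.9%), among them 841 of the WT DEGs that rose and 881 of those that fell. In all 3 genotypes 68 genes were DEGs higher and 157 lower.

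The mannanase gene MELO3C022162.2 shows both patterns. In *CmNOR/Cmnor* it fell from 428 ± 22.5 to 17.1 ± 6.57 FPKM, much as in WT, whereas in *Cmnor* it rose from 2.4 ± 0.612 to 26.9 ± 3.02 FPKM. The *DCR-like* gene MELO3C003230.2 rose in *CmNOR/Cmnor* from 11.1 ± 1.88 to 304 ± 28.5 FPKM and fell in *Cmnor* from 229.7 ± 46.9 to 42.4 ± 2.63 FPKM. In the *18.1 kDa* heat shock gene MELO3C003195.2 WT differed from both: it was at 15.6 ± 4.24 FPKM in *CmNOR/Cmnor* and 6.29 ± 0.795 FPKM in *Cmnor* at 36 DAP, where WT stood at 425 ± 261 FPKM, and at 7.91 ± 1.46, 7.86 ± 0.621 and 8.09 ± 2.82 FPKM after storage in the 3 genotypes in that order. The response of heat shock genes differed from that of *CmNOR/Cmnor* in 23 of 100 and from that of *Cmnor* in 68 of 100, against 6.6% and 45.9% of all genes tested.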

How the data were processed

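Flesh of 3 genotypes, from the vine (33, 36 and 39 DAP) and from stored fruit (6 d), was sequenced with 3 libraries per group, 36 in all. Per the labels and the study's methods, the authors mapped reads with HISAT2 to the melon (DHL92) genome and deposited FPKM values for 25121 named genes, of which 23232 carry melon identifiers and 1889 are loci outside the annotation. The submitters' processing notes also name TopHat2, StringTie and Cufflinks. Their roles and versions, and whether counting used strand, were not given in the sources used here. One line of the table is emptied and is not reported here, and 220 genes at 0 in every library were left out. FPKM depends on the abundance of the other transcripts of a library and keeps no counts.

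From the deposited FPKM, log2(FPKM + 1) was fitted over all 36 libraries in 12 groups with limma 3.58.1 (R 4.3.3, moderated with trend, 24 residual and 2.15 prior degrees of freedom), and p-values were adjusted by Benjamini and Hochberg over the 24901 genes tested. Fold changes on this scale understate changes of low genes. Folds with ± divide the mean FPKM of the groups and carry the SD of both (n = 3 and 3). Depth was estimated as the number of fragments at which low FPKM values, multiplied by the span of the gene, came closest to whole fragments. In the 12 WT libraries 50.7% to 52.1% of these values lay within 0.05 of a whole number. The span counts introns, so that genes with introns do not follow these steps. Depth limits the precision of low genes. Genes named in the text come from a wider set, of which many members are not named, and the choice within it followed no fixed rule. It held the 15 largest changes each way among DEGs with a description, a mean of 5 FPKM or more and no overlap of libraries. It also held the 3 largest changes in each direction and the 3 most abundant members of each of 52 gene lists. Further members were those of short lists, the genes the study names by identifier and the 5 largest interactions in each direction. Members and lists were chosen with earlier results of these data known. Replicate numbers did not pair the libraries, since same-numbered WT libraries had correlations of their deviations of -0.23, 0.048 and -0.06. Alternatives were the pseudocount, a filter on low values, scalings, the libraries in the fit, a replicate block, each WT library left out, the reference stage and a stricter adjusted p.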

Additional observations from a re-analysis of the deposited data

Results flagged for a closer look

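The response to storage differed between WT and *CmNOR/Cmnor* in 1643 genes (6.6% of those tested) and between WT and *Cmnor* in 11419 genes (45.9%), by the interaction in limma at an adjusted p under 0.05. Among the 100 heat shock genes this held for 23 and 68. The largest of these differences are given here as the log2 response of WT minus that of the other genotype.

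Against *CmNOR/Cmnor*, several of the most negative differences were those of heat shock genes that stood higher in WT than in the other genotypes at harvest. They were -4.46 for the *18.1 kDa* gene MELO3C003195.2, -3.38 for the *22.0 kDa* gene MELO3C018485.2 and -3.10 for the *heat shock 70 kDa protein* gene MELO3C003917.2. The *AFG1-like ATPase* gene MELO3C035594.2 (-3.61) fell in WT from 19.3, 17.3 and 22.2 FPKM to 0.773, 2.44 and 1.42 FPKM and stood at 3.09 ± 0.310 and 5.24 ± 2.42 FPKM in *CmNOR/Cmnor* (SD, n = 3). The uncharacterized gene MELO3C006933.2 (-3.14) fell in WT from 71.4, 32.9 and 80.5 FPKM to 9.16, 4.71 and 4.67 FPKM, with the same low replicate 2 at 36 DAP as the small heat shock genes.

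The most positive differences came mainly from a fall in *CmNOR/Cmnor*. They were 5.04 for a *phloem filament protein* gene, MELO3C018579.2, at 133 ± 16.4 FPKM at 36 DAP in *CmNOR/Cmnor* and 3.16 ± 0.566 FPKM in WT, 3.54 for *PHLOEM PROTEIN 2-LIKE A1-like* (MELO3C002874.2), at 406 ± 27.4 and 12.2 ± 5.01 FPKM, and 3.44 for *MLP-like protein 328* (MELO3C015005.2), at 419 ± 85.4 and 129 ± 25.3 FPKM. Those for *CYP21-1* (MELO3C027476.2, 3.58) and for MELO3C031397.2, which has no description (3.33), came from a rise in WT. The latter went from 0.774, 0.262 and 0.372 FPKM to 10.2, 14.0 and 43.2 FPKM, with a log2 fold change of 3.75, and of 3.16 without stored replicate 3.

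Against *Cmnor* the most negative differences were -7.80 for the mannanase gene MELO3C022162.2, -6.88 for the *anthocyanidin 3-O-glucosyltransferase 5* gene MELO3C017566.2, -6.61 for the *metallothionein-like* gene MELO3C016513.2 and -6.58 for *abscisic acid 8'-hydroxylase 1* (MELO3C016219.2), which inactivates abscisic acid. The glucosyltransferase and metallothionein genes fell in WT and rose in *Cmnor*, to 63.0 ± 2.0 and 1093 ± 264 FPKM. The hydroxylase gene stood at 50.2, 38.6 and 48.3 FPKM before and 52.1, 21.3 and 28.8 FPKM after storage in WT and rose in *Cmnor* from 2.14 ± 0.602 to 209 ± 9.95 FPKM. Without stored replicate 1 it passed the test downward in WT as well (log2 fold change -0.85, adjusted p = 0.0011). A further difference of -6.61 was that of the glycine-rich wall protein gene MELO3C031941.2, which was near 0 in all WT libraries and reached 167 ± 33.1 FPKM in stored *Cmnor*.

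The most positive differences were 9.05 for *allene oxide cyclase 1* (MELO3C003015.2), 8.40 for *sugar transport protein 13* (MELO3C014485.2), 8.34 for the *DCR-like* gene MELO3C003230.2, 7.58 for xP2-like (MELO3C016691.2) and 6.80 for *glutaredoxin-S10-like* (MELO3C006620.2). The cyclase gene fell in *Cmnor* from 462 ± 49.5 to 3.91 ± 5.66 FPKM and was at 0.799, 0 and 0.521 FPKM before and 15.4, 1.84 and 1.76 FPKM after storage in WT, where it did not pass the test without stored replicate 1 (adjusted p = 0.13). In WT flesh at 33 DAP it had been at 137 ± 28.0 FPKM.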

How the results depend on the processing

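The number of DEGs rose from 2064 to 3985 (2185 higher, 1800 lower) with a pseudocount of 0.1 and fell to 1145, of which 428 were higher, against WT flesh at 33 and 39 DAP. The other alternatives kept the counts over all genes within 1.5 times, with 2015 to 2208 DEGs over the filter, the scalings and the smaller fits and 2006 at an adjusted p under 0.01. Scalings moved the median of expressed genes to between -0.01 and 0.05 and the share of higher genes among DEGs from 48.2% to between 46.6% and 52.7%. Without 1 WT library there were 1994 to 2220 DEGs, 845 to 1131 higher and 1035 to 1153 lower, 8467 to 9172 genes at the adjusted p alone, and 1323 to 1715 and 10729 to 11208 interactions with *CmNOR/Cmnor* and *Cmnor*. List counts moved further. Those of a fit of only the 6 libraries compared are given with the genes above. With the filter 10 in place of 16 cutin genes and 7 in place of 11 nitrate and peptide transporters were higher, with each scaling 4 in place of 2 genes of sucrose metabolism, and with a pseudocount of 0.1 1 in place of 2 of ethylene synthesis. With a replicate block there were 2068 DEGs (998 higher, 1070 lower), 9533 genes at the adjusted p alone and 1666 and 11400 interactions. No pairing by replicate number was seen. Against 33 and 39 DAP the sign changed for *ERF8* (MELO3C002624.2, 0.48), *ZAT10-like* (MELO3C016809.2, 0.50), MELO3C003696.2 (-0.25), MELO3C006451.2 (-0.15), *APRR5* (MELO3C005921.2, -0.02), *GIGANTEA-like* (MELO3C030034.2, -0.47), MELO3C002874.2 (-2.41) and MELO3C003015.2 (-1.42), and the log2 fold change of MELO3C035594.2 was 0.00. The stored libraries were deeper by estimate than those of 36 DAP, and values of a few fragments carry counting error that FPKM does not show.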

Other observations

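Genes of nitrogen and phenylpropanoid metabolism and a few proteases also changed in WT flesh. Asparagine synthetase (MELO3C007757.2), which makes the nitrogen carrier asparagine, rose from 26.8, 28.1 and 25.1 FPKM to 44.5, 48.4 and 51.7 FPKM (adjusted p = 2.8e-10). A pair of glutamine synthetase genes, of ammonia assimilation, fell, *type-1 glutamine synthetase 1-like* (MELO3C024486.2) from 6.80, 4.32 and 5.94 FPKM to 0.382, 0.229 and 0.169 FPKM and MELO3C022828.2 from 20.8, 22.2 and 17.6 FPKM to 7.34, 6.26 and 6.27 FPKM (adjusted p = 2.1e-11 and 6.9e-07). The branched-chain aminotransferase gene MELO3C010776.2, of a step toward branched-chain aroma compounds, was abundant at 6361, 7690.0 and 6682 FPKM before and 6716, 6348 and 5686 FPKM after storage and did not pass the test (adjusted p = 0.71). In all, 15 of 68 genes of amino acid and ammonia metabolism were higher (22.1%, near the background) and 17 lower (25%, somewhat above it).

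Of 72 phenylpropanoid genes 13 were higher (18.1%, near the background) and 20 lower (27.8%, above it). The genes of cinnamoyl-CoA reductase, which leads to lignin units, went both ways, with MELO3C010188.2 from 27.3, 16.9 and 26.4 FPKM to 69.6, 92.1 and 95.9 FPKM and MELO3C009963.2 from 22.5, 22.5 and 20.3 FPKM to 3.0, 3.48 and 2.74 FPKM (adjusted p = 4.4e-11 and 1.1e-14). Of the 79 proteases 13 were higher (16.5%) and 17 lower (21.5%), both near the background. Among them the vacuolar-processing enzyme gene MELO3C010763.2 fell from 622, 612 and 623 FPKM to 312, 283 and 270.1 FPKM (adjusted p = 2.8e-11). The most abundant, *cathepsin B-like* (MELO3C026898.2), stood at 1115, 1229 and 1218 FPKM before and 1317, 1299 and 1161 FPKM after storage (adjusted p = 0.64).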
